A study of Mus musculus with 10 samples.

Results

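IGKV15-103 and IGKV16-104 are 2 neighbouring variable (V) segments of the mouse immunoglobulin kappa light chain locus (Igk), and each is the single member of its numbered family in the deposited table. They were chosen by name, as the lines of that table whose V call is either segment with the allele removed. The choice was made with earlier results of these data in view, so their levels in the repertoire are given as a description. The members are 2 of the 114 V segments in the table and hold 4514 of its 161780 counts, 1548 for IGKV15-103 and 2966 for IGKV16-104. The samples are Igk transcripts of small pre-B cells sorted by flow cytometry from bone marrow, 5 from C57Bl6 wild-type (WT) mice and 5 from mice of the genotype rsCBE, written with a delta in the design text, all of 6 to 12 weeks of age. No treatment is named, the labels do not spell out rsCBE, and another mutant named in the design text was not analysed here. The title concerns CTCF-mediated chromatin topology and receptor editing. The labels do not say which animals gave which sample, so p-values measure the spread between these samples.

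As background, a kappa light chain gene is made by cutting and joining 1 V segment to 1 of the joining (J) segments that lie downstream of all V segments. Receptor editing replaces a first joint by a further one, which on the same allele uses a V segment farther upstream and a J segment farther downstream. J1 lies nearest to the V segments and J5 farthest, and J3 is not functional in the mouse. The third complementarity-determining region (CDR3) spans the V-J joint. A joint can be in frame or out of frame, and short stretches of bases that the V and J ends have in common can guide where the ends are joined.

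In the GENCODE M21 annotation of the mouse build GRCm38, which is the genome of the mm10 build named in the submitters' processing notes, both members are functional V genes of 2 exons on the forward strand of chromosome 6. This is the strand of the J segments, so both join by deletion of the DNA between. IGKV16-104 (ENSMUSG00000076522.2) spans chr6:68425575-68426072, and IGKV15-103 (ENSMUSG00000076523.2) spans chr6:68437440-68437925. They lie 11.4 kb apart, and IGKV15-103 is the nearer to J1, at 2285 kb. Their second exons, which encode most of the variable domain, were identical at 211 of 299 aligned positions (70.6%). Among the other V segments of the table with an annotated sequence, none was above 75.2% for IGKV15-103 or 74.3% for IGKV16-104, so neither has a near-identical copy among the annotated segments with which reads could be confused.

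The ends of the segments are shown because the joints below turn on them. These are the last 45 bases of the coding strand of exon 2 of each V segment and the whole J exons, 5′ to 3′, from the GENCODE M21 transcripts, with the bases that belong to the CDR3 in capitals. The V ends lie at chr6:68437881-68437925 and chr6:68426028-68426072.
IGKV15-103 end: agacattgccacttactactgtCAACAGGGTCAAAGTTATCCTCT
IGKV16-104 end: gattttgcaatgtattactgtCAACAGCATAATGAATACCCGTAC
J1: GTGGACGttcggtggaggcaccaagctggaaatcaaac
J2: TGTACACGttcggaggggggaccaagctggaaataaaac
J4: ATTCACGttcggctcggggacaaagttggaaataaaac
J5: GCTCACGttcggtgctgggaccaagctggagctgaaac

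Total counts per sample ran from 3109 in WT replicate 4 to 24083 in rsCBE replicate 1. Replicates 1 and 2 of each genotype were given as 1 library each, and replicates 3 to 5 as 2 parts each, which were added. A count belongs to amplified RNA and may not be an independent molecule, so intervals cover counting error only, and fewer cells with a joint cannot be told apart from less RNA per cell. In 2 WT samples the members stood apart. WT replicate 1 had an IGKV15-103 share far above the other samples, and WT replicate 4 held only 33 and 31 counts of the members.

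The share of IGKV15-103 in the repertoire was lower in rsCBE on average, without a call, and the size of the difference depended on the samples included. In WT replicates 1 to 5, IGKV15-103 took 2.59, 0.879, 0.557, 1.06 and 0.851% of counts. In rsCBE replicates 1 to 5 it took 0.851, 0.803, 0.301, 0.478 and 0.583%. WT replicate 1 lay above all 9 other samples, WT replicates 2 and 4 lay just above the rsCBE range, WT replicate 5 was level with the highest rsCBE sample, and WT replicate 3 lay within the range. Set beside the WT sample of the same number, rsCBE was lower in 5 of 5 pairs, by little in replicate 2 (0.879 and 0.803%) and by most in replicate 1 (2.59 and 0.851%). The labels do not state such a pairing. The means were 1.19% ± 0.803 (SD, n = 5) for WT and 0.603% ± 0.228 (SD, n = 5) for rsCBE. In edgeR's quasi-likelihood test the log2 fold change of the share, rsCBE against WT, was -0.98 (SE 0.41), with an unadjusted p of 0.0342 and an adjusted p of 0.509. At an adjusted p of 0.05, 0 of the 98 segments in that test were called (0%), and 7 had an unadjusted p under 0.05 (7.14%). Without WT replicate 1 the log2 fold change of IGKV15-103 was -0.45 (SE 0.33, adjusted p = 0.958), in a set with 1 WT and 2 rsCBE samples given as 1 library. With library structure as a term and WT replicate 1 left out, a fit added after the values had been seen, it was -0.56 (SE 0.26, adjusted p = 0.374 by edgeR). It was -1.07 in the samples given as 1 library, which include WT replicate 1, and -0.83 in the samples given as 2 parts, which do not. With library structure as a term and all samples it was -0.93 (adjusted p = 0.0721), and with replicate number as a block -0.86 (adjusted p = 0.0997). With each clonotype, a distinct combination of V, J and CDR3 bases, counted once, it was -0.35 (SE 0.26, adjusted p = 0.987 by edgeR).

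IGKV16-104, 11.4 kb upstream, had much the same mean share in both genotypes. It took 1.85, 2.30, 1.62, 0.997 and 1.6% of counts in WT replicates 1 to 5. In rsCBE replicates 1 to 5 it took 2.16, 2.07, 1.4, 1.69 and 1.3%. The groups overlapped over most of their range, and the lowest value, of WT replicate 4, rests on 31 counts (Wilson 95% interval 0.703 to 1.41%). The means were 1.67% ± 0.470 and 1.73% ± 0.386 (mean ± SD over 5 samples), and edgeR put the log2 fold change at 0.03 (SE 0.23) with an adjusted p of 0.992. Without WT replicate 4 its sign turned, to -0.10. By mean share over the 10 samples IGKV16-104 ranked 18th of the 114 V segments and IGKV15-103 41st.

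**Figure D1:**
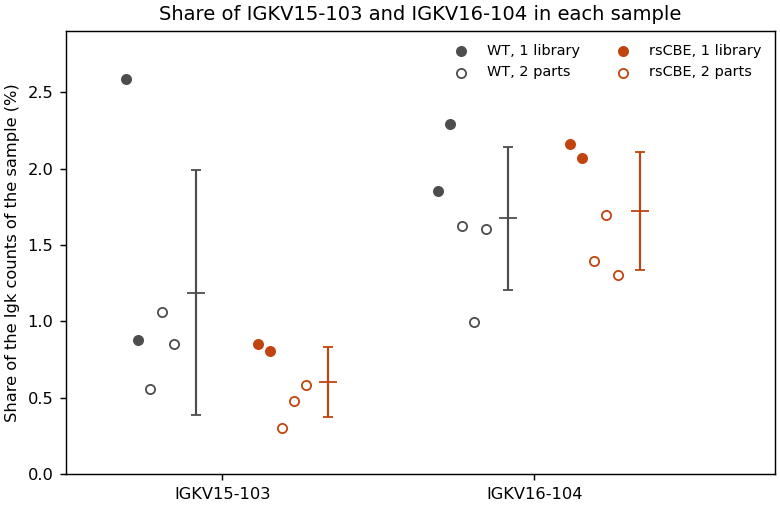
Share of IGKV15-103 and IGKV16-104 among all Igk counts of each sample (vertical axis, %), in WT (grey) and rsCBE (red). Filled points are samples given as 1 library, open points samples given as 2 parts, spread sideways by replicate; bars are the mean and SD of 5 samples. IGKV15-103 in WT replicate 1 stands at 2.59%, while IGKV16-104 overlaps between the genotypes.

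The ratio of the segments within a sample was compared after the values had been seen. IGKV16-104 had the more counts in 8 of 10 samples, and the exceptions were WT replicates 1 and 4, where IGKV15-103 had 1.4 and 1.06 counts for each count of its neighbour. In the other WT samples that ratio was 0.383, 0.344 and 0.531, and in rsCBE it ran from 0.216 to 0.447. The mean log2 ratio was -0.65 in WT and -1.58 in rsCBE, a difference of -0.93 (two-sided exact permutation p = 0.0794). Without WT replicate 1 the difference was -0.64 (exact permutation p = 0.135). It was -1.11 without WT replicate 2 (exact permutation p = 0.0476) and -1.15 without WT replicate 3 (exact permutation p = 0.0317). With any other sample left out the exact permutation p stayed above 0.05.

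The 3 neighbouring V segments with enough counts to be tested had similar means in both genotypes. On the side away from the J segments, the pseudogene IGKV11-106 took 0.245% ± 0.147 in WT and 0.249% ± 0.116 in rsCBE (SD over 5 samples; adjusted p = 0.992 by edgeR). The pseudogene IGKV1-108, too low to be tested, took 0.0138% ± 0.0283 in WT and 0.0048% ± 0.0050 in rsCBE (SD over 5 samples), with 0.0643% as its highest value. On the J side, IGKV20-101-2 took 0.110% ± 0.0764 and 0.106% ± 0.0512, and IGKV14-100 took 0.603% ± 0.204 and 0.570% ± 0.0863 (SD over 5 samples; adjusted p = 0.992 for both by edgeR). IGKV12-104-2, which shares its number with IGKV16-104 but was not matched to the annotation, held 78 counts in all and was too low to be tested. Its shares were 0.0235% ± 0.0166 in WT and 0.0747% ± 0.0553 in rsCBE (mean ± SD over 5 samples).

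**Figure D2:**
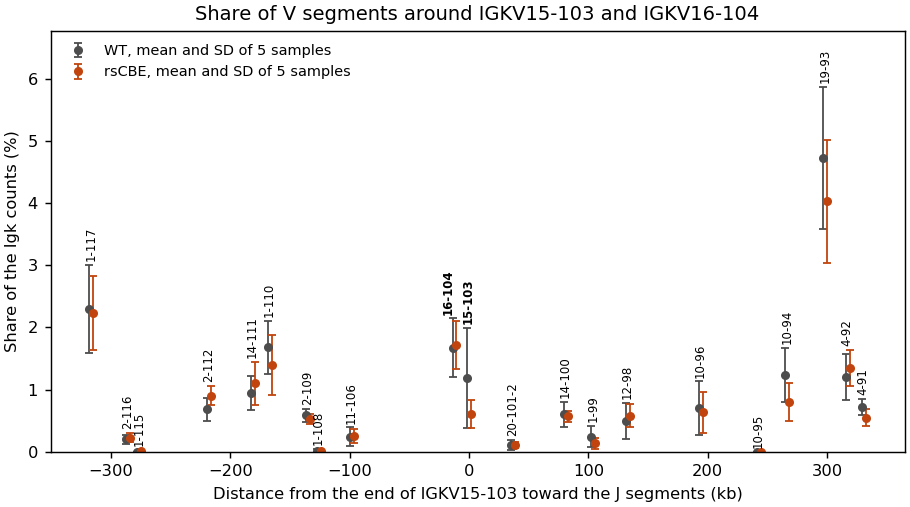
Share of Igk counts (vertical axis, %) of the measured V segments around the members, by distance from the end of IGKV15-103 (horizontal axis, kb, positive toward the J segments). Points and bars are the mean and SD of 5 samples, with the genotypes set slightly apart; IGKV15-103 and IGKV16-104 are in bold. The means of IGKV15-103 are 1.19% in WT, with an SD of 0.803, and 0.603% in rsCBE.

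A few joints without added bases held a large part of both members' counts, and they are shown because they include the most frequent joints with bases that fit both ends. They are the 5 clonotypes with the highest mean share of each member's counts, 5′ to 3′ as the CDR3 reads, with capitals for bases that fit both the V end and the J start. All of them are in frame with 27 bases except the fifth of IGKV16-104, which has 26 and is out of frame.
IGKV15-103 with J2: caacagggtcaaagttatccgtacacg
IGKV15-103 with J1, first: caacagggtcaaagttatccgtggacg
IGKV15-103 with J5, first: caacagggtcaaagttatcctCTcacg
IGKV15-103 with J1, second: caacagggtcaaagttatcctctgacg
IGKV15-103 with J5, second: caacagggtcaaagttatccgctcacg
IGKV16-104 with J1: caacagcataatgaatacccGTggacg
IGKV16-104 with J2: caacagcataatgaatacccGTACacg
IGKV16-104 with J5, first: caacagcataatgaatacccGctcacg
IGKV16-104 with J4: caacagcataatgaatacccattcacg
IGKV16-104 with J5, second: caacagcataatgaatacccgTcacg

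Read against the V ends, the joints of the neighbours differed in the number of V bases matched. The first J1 clonotype of IGKV15-103 matched 20 V bases and 7 J bases. That of IGKV16-104 matched 22 V bases, 2 of them shared with J1, and also 7 J bases. IGKV15-103 most often lost its last 3 bases: this held for 49.5% ± 11.3 of WT counts and 48.3% ± 5.14 of rsCBE counts (SD over 5 samples, mismatched joints left out). Its whole V end remained in 24.8% ± 4.94 and 26.9% ± 9.08. The V end of IGKV16-104 was whole in 28.5% ± 14.3 of WT counts and 34.6% ± 6.07 of rsCBE counts, and had lost 2 bases in 41.1% ± 18 and 32.0% ± 2.25 (mean ± SD over 5 samples). A base that fits both ends was assigned to the V segment, so these losses are the smallest the sequence allows.

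Direct joins, in which the V and J ends account for every base, made up 87.8% ± 3.67 of IGKV15-103 counts in WT and 81.2% ± 5.09 in rsCBE. For IGKV16-104 they made up 87.5% ± 2.97 and 84.5% ± 2.37, and for all other V segments 80.8% ± 1.10 and 81.7% ± 1.37 (mean ± SD over 5 samples each). IGKV16-104 was above the other segments in 5 of 5 samples of each genotype, and IGKV15-103 in 5 of 5 WT and 2 of 5 rsCBE samples. These differences were not tested. By counts, direct joins with 2 or more bases that fit both ends set the members apart. They made up 56.9, 52.1, 58.5, 41.9 and 40.1% of IGKV16-104 counts in WT replicates 1 to 5 and 47.5, 48.4, 41.2, 47.3 and 62.5% in rsCBE. For IGKV15-103 the same share ran from 3.85 to 24.7% over the 10 samples, with a median of 13.9%. All other V segments together ran from 6.61 to 10.3%. IGKV16-104 was therefore higher than its neighbour and than the other segments in every sample, without overlap. With a mean of 49.6% it ranked 1st of the 88 V segments with at least 200 counts and a reference end, ahead of IGKV4-57-1 at 28.3%, and IGKV15-103 ranked 18th. This is a description of sequences and carries no test, since these counts come from the joints printed above. With each clonotype counted once, the share in IGKV16-104 ran from 4.13 to 15.4%, so its high share of counts lies in a few abundant clonotypes. Counted that way, IGKV15-103 ran from 3.70 to 21.1% and all other V segments from 4.56 to 6.26%, so the members were no longer set apart.

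**Figure D3:**
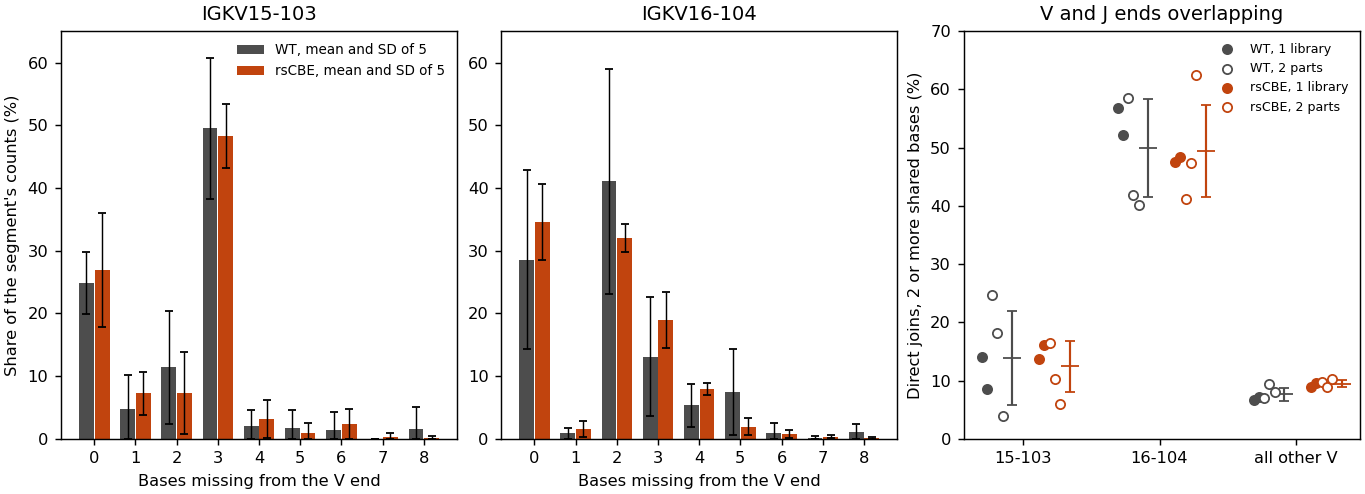
Left and middle: share of the segment's counts (vertical axis, %, mean and SD of 5 samples) by the number of bases missing from the V end of IGKV15-103 and IGKV16-104. Right: share of counts in direct joins with 2 or more bases that fit both V and J (vertical axis, %), each point 1 sample; IGKV16-104 lies at 40.1 to 62.5%, above IGKV15-103 and all other V segments.

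In IGKV16-104, the J1 clonotype with 2 shared bases took 31.0% ± 7.48 of the segment's counts in WT and 25.6% ± 2.55 in rsCBE (mean ± SD over 5 samples) and was present in all 10 samples. The J2 clonotype with 4 shared bases took 18.5% ± 13.6 and 23.1% ± 5.87, in 9 samples, and was not found among the 31 counts of WT replicate 4. The first J5 clonotype, with 1 shared base, took 11.1% ± 8.77 and 13.6% ± 4.88 (mean ± SD over 5 samples). All 3 overlapped between the genotypes.

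In IGKV15-103, the leading clonotypes with J2, J1 and J5 were each present in all 10 samples and together held 47.6% of the segment's counts, or 37.9% without WT replicate 1. The J2 clonotype took 11.5% ± 8.47 in WT and 20.7% ± 7.73 in rsCBE, and the first J5 clonotype 9% ± 6.42 and 9.90% ± 4.48 (mean ± SD over 5 samples), both with overlap. The first J1 clonotype took 40.7, 13.3, 23.4, 15.2 and 17.9% in WT replicates 1 to 5. In rsCBE replicates 1 to 5 it took 12.2, 12.3, 5.45, 4.41 and 8.82%, below every WT sample. It was the only clonotype without overlap among the 13 clonotypes of the members found in 8 or more samples. Over the V segments with at least 5 counts in every sample, 14 of 660 such clonotypes did not overlap (2.12%). In counts, it had 240 in WT replicate 1, 5 to 25 in the other WT samples and 3 to 25 in rsCBE. Its share is a description, chosen after its values were seen, and was not tested.

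With that J1 clonotype left out, IGKV15-103 still took 1.55% of the counts of WT replicate 1, against 0.428 to 0.902% in the other WT samples and 0.285 to 0.748% in rsCBE. The means without it were 0.868% ± 0.418 and 0.545% ± 0.189 (mean ± SD over 5 samples). The large value of WT replicate 1 thus lay partly in 1 clonotype and partly in others. The 5 printed clonotypes of a segment held 42.3 to 66.6% of IGKV15-103 counts per sample, with a median of 46.9%, and 58.1 to 74.1% of IGKV16-104 counts, with a median of 65.4%. At the other end, 185 of the 236 distinct clonotypes of IGKV15-103 and 287 of the 375 of IGKV16-104 were found in 1 sample.

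Both members were joined to J1 more and to J5 less than the rest of the repertoire. In IGKV15-103, J1 took 54.2, 45.2, 45.5, 33.3 and 51.3% of counts in WT replicates 1 to 5 and 41.0, 41.2, 29.1, 33.8 and 39.7% in rsCBE. Over the 10 samples the mean was 41.4%, against 27.5% in all other V segments, and it was higher in 10 of 10 samples (difference 13.96 percentage points, SD 6.95, n = 10; two-sided exact sign-flip permutation p = 0.00195, the smallest this test can give). Its J5 share was 19.4% against 34.2%, lower in 10 of 10 samples (exact permutation p = 0.00195, n = 10). In IGKV16-104, J1 took 45.7, 44.0, 32.1, 67.7 and 42.2% in WT and 35.4, 35.4, 31.4, 27.0 and 38.2% in rsCBE. Its mean of 39.9% was higher than the rest in 9 of 10 samples (difference 12.4 percentage points, exact permutation p = 0.00586), and WT replicate 3 was the exception. J5 took 23.8% of IGKV16-104 counts and was lower than the rest in 9 of 10 samples (exact permutation p = 0.00977), with WT replicate 5, at 38.1%, the exception. With each clonotype counted once, J5 of IGKV16-104 was 27.68% against 33.1% (exact permutation p = 0.0703, n = 10). These p-values are unadjusted, over 12 within-sample comparisons of the members with the rest and with each other. They carry the reserve that the members were chosen with these data in view.

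The J1 and J5 shares of the members did not pass a test against each other over the 10 samples. Their J1 shares differed by 1.51 percentage points (SD 13.4, n = 10; exact permutation p = 0.813), and their J5 shares by -4.39 (SD 10.2, n = 10; exact permutation p = 0.186), IGKV15-103 minus IGKV16-104. With each clonotype counted once the J5 difference was -9.71 (exact permutation p = 0.0156, n = 10), and with part a alone of the samples given as 2 parts it was -5.45 (exact permutation p = 0.0488, n = 10). Without WT replicate 4, where J1 took 67.7% of the 31 counts of IGKV16-104, the J1 difference was 5.51 percentage points (exact permutation p = 0.0156). By the sum of absolute differences of mean J shares divided by 2, over the 10 samples, the segments most like IGKV15-103 among the 86 others with at least 200 counts in all and some in every sample were IGKV16-104 (4.39 percentage points), IGKV3-4 (5.50) and IGKV1-88 (6.52). Those most like IGKV16-104 were IGKV1-88 (3.64), IGKV15-103 (4.39) and IGKV1-133 (4.79). Without WT replicate 4 the value between the members was 7.16 percentage points, which put IGKV16-104 3rd for IGKV15-103, after IGKV1-88 (6.00) and IGKV3-4 (6.68), and IGKV15-103 5th for IGKV16-104. With WT replicate 5 left out it was 2.38, and with any 1 of the other samples left out 4.11 to 5.68. IGKV16-104 also fell to 2nd for IGKV15-103 without rsCBE replicate 4, after IGKV3-4 (4.30 against 4.61), and IGKV15-103 ranked between 1st and 5th for IGKV16-104. Both members also ranked high in J2, with 29.4% and 27.5% against a median of 21.6% over 87 V segments. Both were low in J4, with 9.67% and 8.80% against a median of 14.7%. J4 was not found among 77 and 78 counts of IGKV15-103 in WT replicates 3 and 5. Were counts independent, this would allow shares of up to 3.9 and 3.85%. The counts lay in only 19 and 21 clonotypes, so larger shares are possible. J4 was also not found among the 31 counts of IGKV16-104 in WT replicate 4, which on the same assumption allows up to 9.68%, above that segment's mean.

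**Figure D4:**
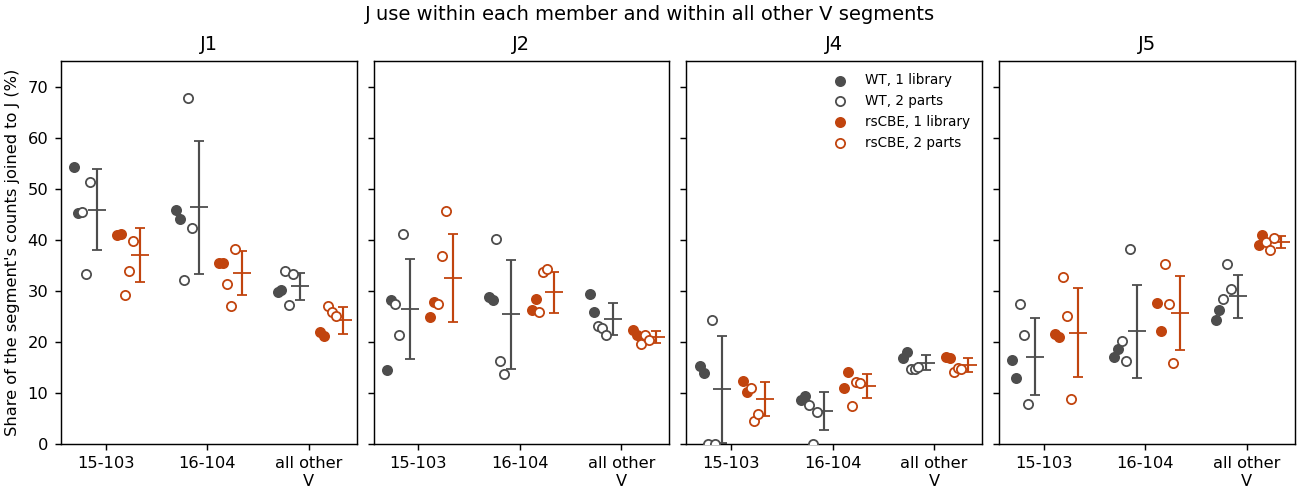
Share of counts joined to J1, J2, J4 and J5 (vertical axis, %) within IGKV15-103, IGKV16-104 and all other V segments, by sample. Grey is WT and red rsCBE, filled points are samples given as 1 library and open points samples given as 2 parts, spread sideways by replicate; bars are the mean and SD of 5 samples. Both members lie above the other V segments in J1 and below them in J5 on average.

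Between the genotypes, the J1 share was lower on average in rsCBE in both members, and neither difference passed the adjusted test. In IGKV15-103 the mean J1 share was 45.9% ± 8 in WT and 37% ± 5.32 in rsCBE (SD over 5 samples; two-sided exact permutation p = 0.0873, adjusted p = 0.248). In IGKV16-104 it was 46.4% ± 13.1 and 33.5% ± 4.36 (SD over 5 samples; exact permutation p = 0.0317, adjusted p = 0.143). Without WT replicate 4, at 67.7% of 31 counts, the WT mean of IGKV16-104 was 41.0% and the difference -7.55 percentage points (adjusted p = 0.175 by exact permutation). Beside the WT sample of the same number, the J1 share was lower in rsCBE in 5 of 5 pairs for IGKV16-104 and in 4 of 5 for IGKV15-103. With replicate number as a block the exact permutation p was 0.0625 and 0.125 (adjusted p = 0.230 and 0.312), and 5 pairs cannot give an unadjusted p below 0.0625. The J1 share of the rest of the repertoire was also lower in rsCBE in every pair, with means of 30.8% in WT and 24.1% in rsCBE. Adjustment covered the J1 and J5 shares of 81 V segments, and 0 of 162 passed (0%). An unadjusted p under 0.05 was reached for the J1 share in 16 of 81 segments (19.8%), so IGKV16-104 was one of many. The median difference over the 81 segments was -4.15 percentage points, against -8.93 and -12.9 in the members. Without WT replicate 4 that median was -6.36, against -12.1 and -7.55 in the members. Among samples given as 1 library the members' differences were -8.61 and -9.47, and among samples given as 2 parts -9.15 and -15.2. With each clonotype counted once the difference in IGKV15-103 was 3.03 percentage points in the other direction (adjusted p = 0.740 by exact permutation).

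The J5 share of the members did not pass a test between genotypes. It was 17.0% ± 7.55 in WT and 21.8% ± 8.65 in rsCBE for IGKV15-103 (exact permutation p = 0.389), and 22.0% ± 9.13 and 25.6% ± 7.23 for IGKV16-104 (exact permutation p = 0.5; SD over 5 samples). Beside the WT sample of the same number, the J5 share was higher in rsCBE in 5 of 5 pairs for IGKV15-103 and in 4 of 5 for IGKV16-104. That of the rest of the repertoire was higher in rsCBE in every pair. The members' differences of 4.73 and 3.64 percentage points ranked 18th and 15th from the lowest of 81 segments, whose median was 10.2. With 1 sample left out in turn, the difference ran from 1.99 to 7.96 percentage points in IGKV15-103, without rsCBE replicates 3 and 5. In IGKV16-104 it ran from 1.23 without rsCBE replicate 3 to 7.67 without WT replicate 5, where it ranked 29th and the median was 9.58. Whether the members' differences depart from the median was not tested.

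The V-J pairs, as shares of the whole repertoire, gave no call in the fit without further terms. Of 270 pairs tested by edgeR, 0 passed an adjusted p of 0.05 (0%) and 25 had an unadjusted p under 0.05 (9.26%). With library structure as a term 7 of the 270 were called, and with DESeq2 2 of 470, none of them a pair of the members. IGKV15-103 with J1 was the only one of the 8 member pairs among those 25, with a log2 fold change of -1.31 (SE 0.48, unadjusted p = 0.0152, adjusted p = 0.459). Without WT replicate 1 it was -0.62. Over the alternatives other than leaving out a replicate it ran from -1.53 to -0.28. Among the samples given as 1 library alone it was called, at -1.41 (SE 0.39, adjusted p = 0.0361 by edgeR), as 1 of 35 called among the 285 pairs tested there, and among the samples given as 2 parts it was -1.12 (adjusted p = 0.599 by edgeR). The other pairs of IGKV15-103 had log2 fold changes of -0.51 with J2, -1.42 with J4 and -0.64 with J5. Without WT replicate 1 these were -0.35, -0.49 and -0.07. For IGKV16-104 they were -0.37 with J1, 0.15 with J2, 0.61 with J4 and 0.24 with J5, and with 1 sample left out in turn they ran from -0.49 to -0.23, -0.03 to 0.31, 0.40 to 0.90 and 0.10 to 0.48. In the fit over all samples without further terms, none of these 7 had an adjusted p below 0.638 by edgeR. The median over the 8 member pairs was -0.44, or -0.19 without WT replicate 1, against -0.05 over all 270.

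IGKV16-104 held an in-frame share of counts above the rest of the repertoire. In-frame joints, with a length that is a multiple of 3 and no stop, were 84.4, 80.4, 87.9, 48.4 and 82.3% of its counts in WT replicates 1 to 5 and 82.5, 79.1, 74.1, 85.1 and 86.8% in rsCBE. All samples but WT replicate 4, with 31 counts, were above 74%. The mean of 79.1% stood against 67.7% in all other V segments, and it was higher in 9 of 10 samples (difference 11.4 percentage points, SD 11.5; exact permutation p = 0.0156, n = 10). It ranked 4th of 87 V segments. With each clonotype counted once, 51.9% of IGKV16-104 clonotypes and 52.5% of the others were in frame (exact permutation p = 0.898, n = 10). The higher in-frame share of counts thus lay in abundant clonotypes, of which the leading 4 printed above are all in frame. Summed over samples, 89.95% of the 846 counts with J2 and 84.3% of the 1122 with J1 were in frame, against 74.5% of the 699 with J5 and 64.5% of the 299 with J4. In the rest of the repertoire the same shares were 72.7, 72.1, 63.4 and 65.9%.

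For IGKV15-103 the in-frame share also varied between samples (SD 9.48 over the 10 samples, against 11.5 in IGKV16-104). It was 92.5, 73.9, 71.4, 63.6 and 57.7% in WT and 80.5, 66.8, 70.9, 70.6 and 69.1% in rsCBE. The highest value was that of WT replicate 1. The mean of 71.7% was higher than the rest in 8 of 10 samples, a difference that did not pass (4.02 percentage points, exact permutation p = 0.143, n = 10). With 1 sample left out in turn the difference ran from 2.63 to 5.90 percentage points, the latter without WT replicate 5 (exact permutation p = 0.0117). IGKV15-103 was lower than IGKV16-104 in 8 of 10 samples (-7.39 percentage points, exact permutation p = 0.0918, n = 10). Without WT replicate 4 that difference was -9.90 (exact permutation p = 0.0234), and without WT replicate 1 it was -9.12 (exact permutation p = 0.0469).

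Neither member's in-frame share passed a test between genotypes. It was 71.8% ± 13.2 in WT and 71.6% ± 5.23 in rsCBE for IGKV15-103, and 76.7% ± 16.1 and 81.5% ± 5.06 for IGKV16-104 (SD over 5 samples; adjusted p = 1 and 0.959 by exact permutation). Of 81 V segments 0 passed (0%). Over these segments the in-frame share was lower in rsCBE in 57 and higher in 24, with a median difference of -5.31 percentage points. The members' differences were -0.26 and 4.83. Without WT replicate 1 that of IGKV15-103 was 4.92, and without WT replicate 4 that of IGKV16-104 was -2.24.

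The in-frame CDR3 of IGKV16-104 was longer than that of its neighbour and of the pooled counts of all other V segments, but not unusual among single segments. Weighted by counts, its mean length was 27.09 nucleotides, against 26.70 in all other V segments, and it was longer in 10 of 10 samples (difference 0.39, SD 0.157, n = 10; exact permutation p = 0.00195). IGKV15-103 had a mean of 26.72 and differed from the rest by 0.02 nucleotides (exact permutation p = 0.758, n = 10). It was shorter than IGKV16-104 in 10 of 10 samples (-0.37 nucleotides, SD 0.181, n = 10; exact permutation p = 0.00195). By mean in-frame length over the 10 samples, IGKV16-104 ranked 29th from the longest of 87 V segments and IGKV15-103 65th. The median of these segments was 26.98 nucleotides, above the 26.70 of the pooled counts. The V end of IGKV16-104 contributes up to 24 bases to the CDR3 and that of IGKV15-103 up to 23. Of all counts, joints of 24 nucleotides made up 4.76% of IGKV15-103 in WT and 4.95% in rsCBE. They made up 1.2% and 0.98% of IGKV16-104 and 9.99% and 9.81% of the rest. Joints of 27 nucleotides made up 64.7% and 63.5% of IGKV15-103, 72.7% and 77.1% of IGKV16-104, and 54.7% and 49.4% of the rest (means of 5 samples each).

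CDR3 length within a member was not separated between genotypes. The means were 26.75 ± 0.253 and 26.69 ± 0.154 nucleotides in IGKV15-103, and 27.09 ± 0.191 and 27.09 ± 0.0689 in IGKV16-104 (WT and rsCBE, SD over 5 samples; adjusted p = 0.956 and 1 by exact permutation). Of 78 V segments 0 passed (0%).

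**Figure D5:**
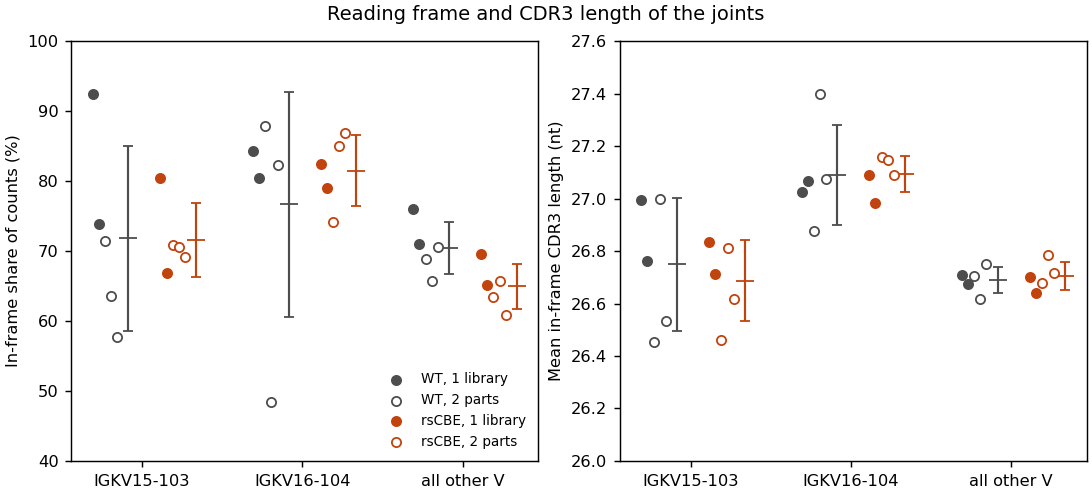
In-frame share of counts (left, vertical axis in %, starting at 40) and count-weighted mean in-frame CDR3 length (right, nucleotides, starting at 26) within IGKV15-103, IGKV16-104 and all other V segments, by sample. Colours and points are as in the plot of J use. The CDR3 of IGKV16-104 is longer than that of IGKV15-103 in 10 of 10 samples, and the low in-frame point of IGKV16-104, 48.4%, is WT replicate 4 with 31 counts.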

How the data were processed

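The 10 mouse samples are RNA of sorted pre-B cells, made into amplicon libraries and read in pairs of 151 bases on a MiSeq, per the labels' protocols. The authors deposited 1 table of whole-number counts per combination of V, J and CDR3 in each of 16 libraries. The caller, germline set, read filters and any molecular identifiers are not given in the sources used here. The 2 parts of a sample were added, and 49 duplicate lines merged.

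V segments and V-J pairs were tested with edgeR 4.0.16 (R 4.3.3; quasi-likelihood F-test, library size the total count, factors of 1, filterByExpr) with Benjamini-Hochberg adjustment at 0.05 over all tested. DESeq2 1.42.0 was an alternative. Shares and lengths were compared by two-sided exact permutation over 252 arrangements (smallest p 0.00794), for V segments with at least 5 counts in every sample, and within samples by sign flips over 1024. These steps were tested on simulated data. J3 is left out where not named.

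CDR3s were matched to GENCODE M21 transcript ends. One mismatch followed by 3 fitting bases was not read as added bases. Of the counts, 99.8% lay in the 111 V segments with a reference end.

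Named were the members, their pairs, 2 V segments on each side, the 3 segments nearest in J profile with at least 200 counts, and the 5 leading clonotypes. The members and lists were chosen with earlier results of these data known. Same-numbered WT and rsCBE samples had deviations correlated at 0.80, 0.80, 0.59, 0.11 and 0.40. Within samples of 1 library structure these correlations were 0.12, 0.12, 0.15, -0.21 and -0.11, so a pairing beyond library structure was not shown. The main tests between genotypes were unpaired, and replicate number served as a block in an alternative only. Depth was 3109 to 24083 counts per sample; the share of 1 segment in a sample carries a Wilson 95% interval.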

Additional observations from a re-analysis of the deposited data

Results flagged for a closer look

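Each genotype's 5 values of 8 quantities were checked in both members for a value far from the other 4, in 32 groups, of which chance flags about 1.6, and 4 stood out. The share of IGKV15-103 in WT replicate 1, 2.59%, lay far above the other WT samples (0.557 to 1.06%). In the same sample the largest clonotype of IGKV15-103 held 40.7% of its counts, against 17.9 to 23.4% in the others. The J5 share of IGKV16-104 in WT replicate 5 was 38.1%, against 16.1 to 20.1%, on 147 counts. The in-frame share of IGKV16-104 in WT replicate 4 was 48.4%, against 80.4 to 87.9%, on 31 counts.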

How the results depend on the processing

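The alternatives were other normalizations, tests, filters and ways of counting, leaving out each replicate, the replicate block, and the samples given as 1 library, as 2 parts, or by part a or b alone. The log2 fold change of IGKV15-103 stayed negative and short of a call in all 22, from -1.17 to -0.45 with 1 replicate left out, at -0.86 with the replicate block and at its smallest, -0.35, with each clonotype counted once. That of IGKV16-104 turned with DESeq2 (-0.052) and with each clonotype counted once (-0.013) and, in a fit added after seeing the data, with library structure as a term and WT replicate 1 left out (-0.035), and ran from -0.10 to 0.17 with 1 replicate left out. Its J2 pair was -0.029 in samples of 1 library and -0.026 to 0.31 with 1 replicate left out. V segments called rose from 0 to 1 with the replicate block and 2 with library structure as a term, and pairs from 0 to 2 with DESeq2, 7 with that term and 35 in samples of 1 library, among them 1 member pair, IGKV15-103 with J1. The replicate block changed no other call.

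Between genotypes, the J1 difference in IGKV15-103 was 3.03 percentage points with each clonotype counted once. Its in-frame difference was 2.93 without clonotypes of 1 count, 1.42 with part b alone, 5.95 in samples of 2 parts, and -3.79 to 4.92 with 1 replicate left out. That of IGKV16-104 was -1.61 in samples of 1 library and -2.24 to 7.65 with 1 replicate left out. The CDR3 length difference of IGKV15-103 was -0.13 to 0.0016 nucleotides with 1 replicate left out. That of IGKV16-104 was -0.29 with each clonotype counted once, -0.041 with part b alone, -0.0092 in samples of 1 library, and -0.048 to 0.083 with 1 replicate left out.

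Within samples, 4 samples of 1 library cannot give an exact permutation p below 0.125. There IGKV15-103 differed from the rest by 19.7 points in J1 and -14.7 in J5, and IGKV16-104 by 14.5, -11.2 and, in frame, 11.2, with lengths of 0.36 nucleotides against the rest and -0.22 for IGKV15-103 against IGKV16-104. In samples of 2 parts, IGKV16-104 differed by 11.1 in J1, -9.84 in J5 and 11.6 in frame, none with a p under 0.05, and the J1 difference between the members was -0.98. With each clonotype counted once, IGKV16-104 differed from the rest by -5.45 in J5 and -0.62 in frame, and the members from each other by -9.71 in J5 (exact permutation p = 0.0156) and 2.29 in frame. Their J5 difference was -5.45 with part a alone (exact permutation p = 0.0488). The length difference of IGKV15-103 from the rest was -0.0401 with each clonotype counted once, -0.0401 with part a alone, -0.062 in samples of 2 parts and -0.0196 to 0.0509 with 1 replicate left out. With 1 replicate left out, the members differed by 0.20 to 5.51 in J1 and -9.90 to -5.47 in frame, and IGKV15-103 from the rest by 2.63 to 5.90 in frame, where leaving out WT replicate 5 gave an exact permutation p of 0.0117. The cause of these changes was not tested. Depth limits WT replicate 4 most, with 33 and 31 member counts.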
